A study of Mus musculus with 9 samples.

Results

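The 45 genes described here encode the ligands, receptors, Smad proteins, secreted antagonists and Id target genes of bone morphogenetic protein (BMP) and transforming growth factor beta (TGF-beta) signalling. They were taken by gene symbol, as the genes named Bmp, Bmpr, Tgfb, Tgfbr, Acvr, Smad, Id and Inhb with a number or letter, plus Nog, Chrd, Grem1, Bambi and Eng, and make up 45 of the 19933 genes that had a probe set with 1 symbol. The choice used names and no measured value. Expression was measured in mouse yolk sacs taken at embryonic day 9.5, on a background mixed from the SV 129 and C57BL/6 strains, without treatment. Of the 9 samples, 3 were Rnh1-/- (KO), 3 were Rnh1+/- (HET) and 3 were Rnh1+/+ (WT). Rnh1 encodes ribonuclease inhibitor, which binds ribonucleases of the ribonuclease A family tightly inside cells. Each sample had 1 Affymetrix array, read as a log2 signal per probe set after robust multi-array averaging (RMA). The labels do not say whether the samples came from separate embryos or pools, so the p-values rest on the spread between the deposited samples, which may be technical.

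In this pathway, a ligand dimer brings type I and type II receptor kinases together, and the type I receptor then phosphorylates receptor Smads, which join Smad4 and act on genes in the nucleus. Bmp receptors use Smad1, Smad5 and Smad9, TGF-beta and activin receptors use Smad2 and Smad3, and the inhibitory Smad6 and Smad7, themselves targets of the pathway, close a negative feedback loop. In the mouse yolk sac, Bmp4, Tgfb1, Smad5, Eng and Acvrl1 are known for their part in blood island and vessel formation.

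Rnh1 was at 6.28, 6.78 and 6.87 on the KO arrays, at 9.75, 9.75 and 9.77 on the HET arrays, against 10.39, 10.42 and 10.32 on the WT arrays. Its level thus matched the labels on each array, with HET between the other genotypes. Array medians ran from 7.07 to 7.20, and correlations between arrays of 1 genotype ran from 0.992 to 0.998. KO 1 and WT 2 stood apart on the second principal component, which held 18.7% of the variance, at 20.3 and 11.6, and HET 3 lay to the other side at -12.7. Xist lay at 11.05, 11.06 and 11.67 in KO, at 5.15, 10.56 and 5.76 in HET, against 5.69, 10.65 and 11.00 in WT. Eif2s3y, from the Y chromosome, lay at 7.62, 7.27 and 4.41 in KO, at 8.68, 7.87 and 8.48 in HET, against 8.81, 8.15 and 4.34 in WT. KO 1, KO 2, HET 2 and WT 2 thus carried both transcripts at a high level.

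In KO yolk sacs 7 of the 38 members tested differed from WT. The inhibitory Smad7, the receptor Smad Smad3, the activin receptor Acvr2b, the decoy receptor Bambi and the ligand Bmp5 rose, and the ligand Bmp7 and the target gene Id2 fell. A gene counted as changed at an adjusted p under 0.05 in limma, with Benjamini-Hochberg adjustment over the 13207 genes tested. The share called was 18.4% of the members tested, against 23.5% of all genes tested, a share near this background. By direction, 5 members rose, or 13.2%, against 8.27% of all genes, and 2 fell, or 5.26%, against 15.2% of all genes. The same 7 members passed in the same directions between KO and HET, where 21.8% of all genes passed, 8.17% higher and 13.6% lower. Both comparisons use the same 3 KO arrays. Between HET and WT limma called 0 of 38 members and 0% of all genes; 1 member and 2.48% of all genes had an unadjusted p under 0.05. That member was Inhbb, with a HET minus WT difference of 0.22 and an adjusted p of 0.939. Rnh1 itself, with a HET minus WT difference of -0.62, also did not pass in limma, at an adjusted p of 0.939. The lack of calls therefore does not show equal levels in HET and WT.

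The median log2 difference over the 38 members was 0.11 for KO minus WT, against -0.005 over all genes tested. For KO minus HET it was 0.11 against -0.014. The 3 KO values lay wholly above the 3 WT values for 13 members and wholly below for 3, together 42.1% of members, against 40.5% of all genes, of which 15.8% lay higher and 24.7% lower. Between KO and HET 10 members lay wholly above and 4 wholly below, against 37.1% of all genes, 15.7% higher and 21.4% lower. At an unadjusted p under 0.05 limma had 9 members between KO and WT, against 38.0% of all genes, and 11 between KO and HET, against 35.1%. Between HET and WT 3 members lay wholly above and 1 wholly below, against 10.2% of all genes, 4.25% higher and 5.98% lower. Among all genes called between KO and WT, 64.8% were lower in KO, and 81.4% with each array centred on its median.

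The remaining 7 members were not tested, because they did not exceed the 40th percentile of an array, which lay between 6.36 and 6.57, on at least 3 arrays. Bmp3, Bmp10, Bmp15, Inhba, Acvr1c and Bmpr1b were dim on all 9 arrays. Grem1, a secreted BMP antagonist, was at 6.52, 6.36 and 6.73 in KO, at 6.18, 6.12 and 6.47 in HET, against 6.24, 5.68 and 6.27 in WT. Only 2 KO arrays exceeded their percentile for Grem1, and its KO and HET values overlapped. Bmpr1b, a type I BMP receptor, was at 5.14, 5.11 and 5.09 in KO, at 4.90, 4.83 and 4.93 in HET, against 4.76, 4.73 and 4.93 in WT. Its KO values lay above the others, but below the 40th percentile of each array. With no filter it was called higher in KO than in WT.

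**Figure D1:**
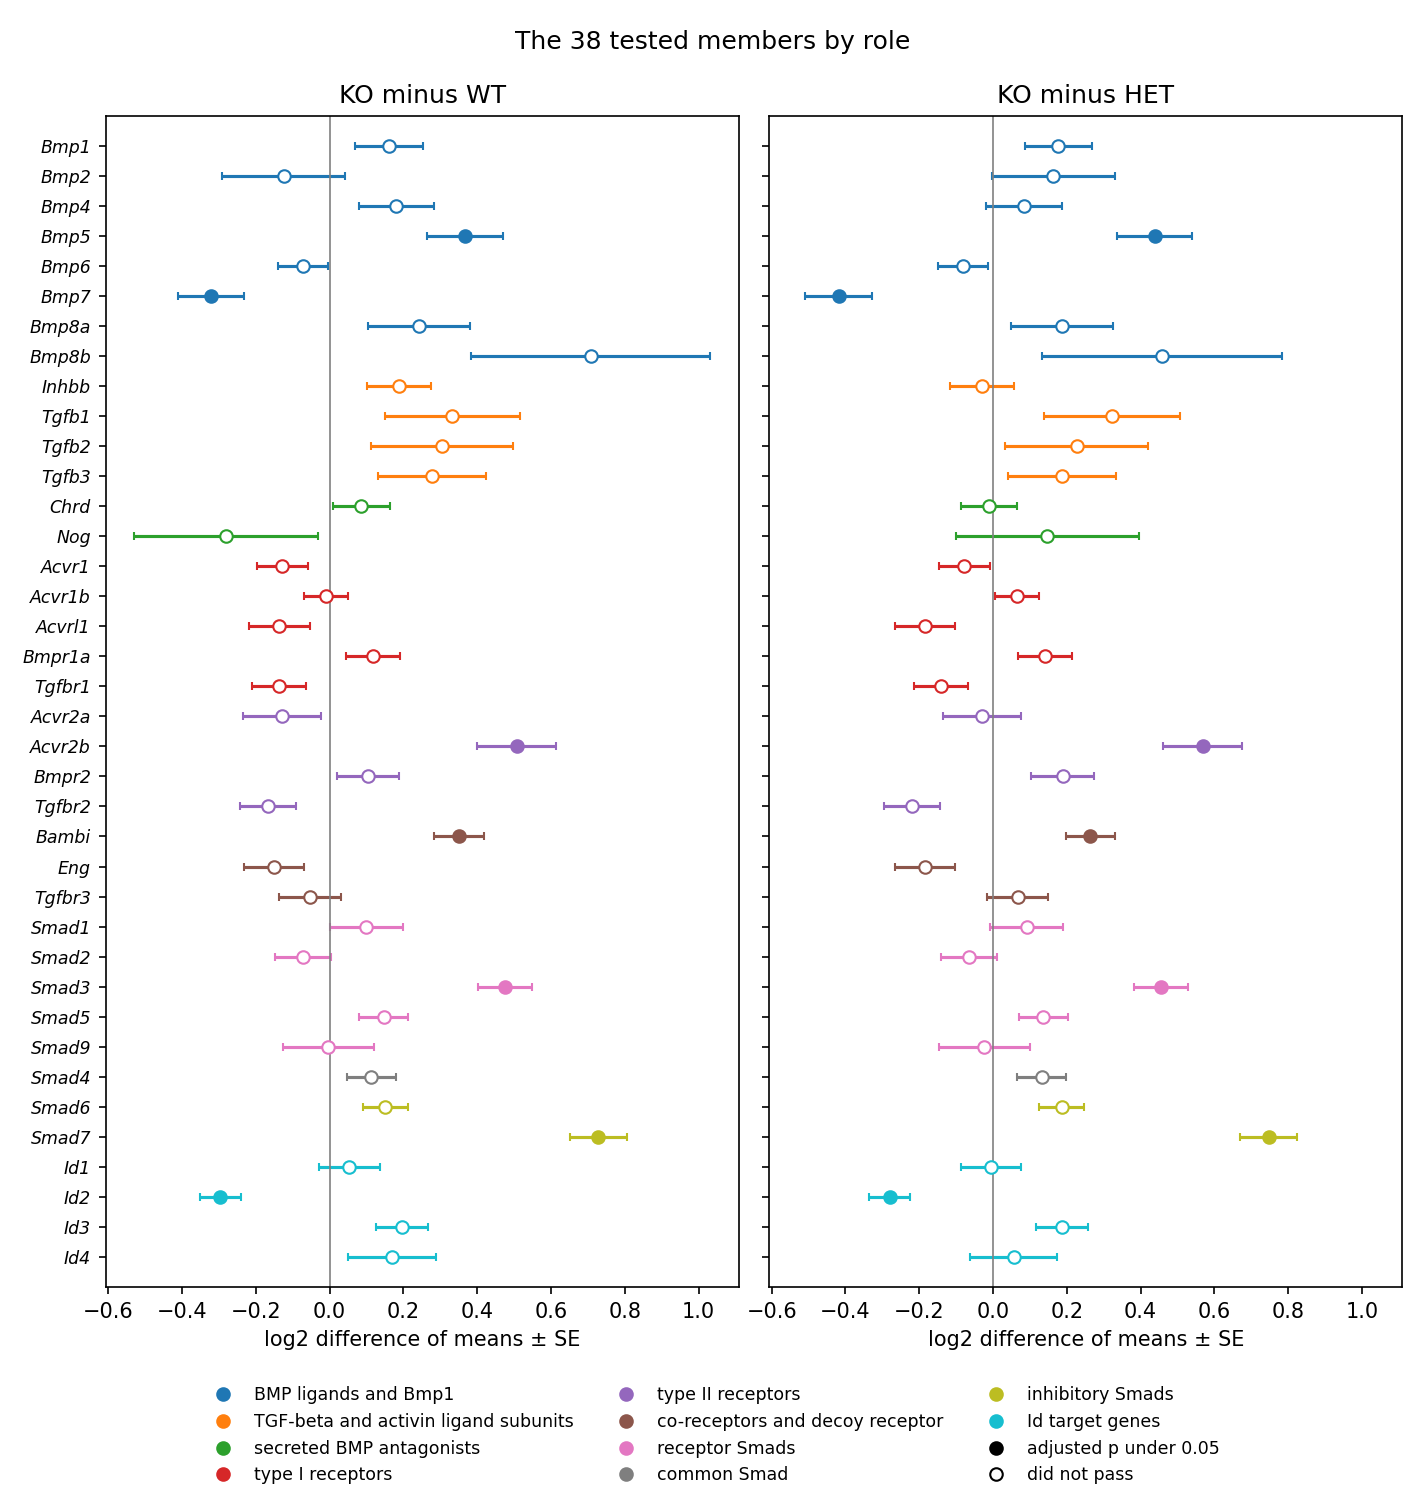
The log2 difference of each of the 38 tested members between KO and WT and between KO and HET, ordered by role, with bars of 1 standard error from limma. Filled points passed at an adjusted p under 0.05 and open points did not; Smad7 is the farthest to the right of the members that passed, at 0.73 and 0.75, and Bmp7 the farthest to the left, at -0.32 and -0.42.

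The promoters of 3 members are shown, each with a motif known from Smad binding. Of these, Bmp5 and Id2 passed in KO, and Smad6 was the only one with GTCTAGAC among the 32 members that had a window. Other members held a motif too. GGCGCC was in windows of 10 members, Id2 included, and CAGACA, on either strand, in windows of 6, Bmp5 included. Each runs from 250 bases before the transcription start to 50 bases after it on the gene's strand, from RefSeq on GRCm38.p6. Capitals mark TGTCTG in Bmp5 (chr9:75775115-75775414, plus strand), GGCGCC in Id2 (chr12:25096043-25096342, minus strand) and GTCTAGAC in Smad6 (chr9:64022010-64022309, minus strand).
Bmp5: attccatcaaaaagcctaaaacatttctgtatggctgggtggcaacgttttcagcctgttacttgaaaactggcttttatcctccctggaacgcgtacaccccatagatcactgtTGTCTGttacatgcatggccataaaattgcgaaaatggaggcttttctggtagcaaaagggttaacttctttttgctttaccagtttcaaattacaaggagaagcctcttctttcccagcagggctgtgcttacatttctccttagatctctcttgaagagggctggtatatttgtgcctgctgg
Id2: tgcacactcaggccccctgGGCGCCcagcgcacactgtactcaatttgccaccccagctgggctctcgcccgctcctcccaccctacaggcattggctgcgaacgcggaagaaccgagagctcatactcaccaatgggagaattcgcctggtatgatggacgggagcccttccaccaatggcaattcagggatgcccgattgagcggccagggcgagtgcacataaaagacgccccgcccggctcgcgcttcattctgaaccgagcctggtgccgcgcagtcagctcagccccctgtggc
Smad6: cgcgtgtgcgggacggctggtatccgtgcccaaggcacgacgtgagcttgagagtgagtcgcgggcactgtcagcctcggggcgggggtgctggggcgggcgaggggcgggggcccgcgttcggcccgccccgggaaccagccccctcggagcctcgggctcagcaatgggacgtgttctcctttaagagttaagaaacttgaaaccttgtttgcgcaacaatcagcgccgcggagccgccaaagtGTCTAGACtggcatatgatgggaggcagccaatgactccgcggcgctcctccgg

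The search covered GGCGCC and GTCTAGAC, which read the same on both strands, and CAGACA with its complement TGTCTG; none of the 3 contains another. RefSeq windows matched 32 members in 38 windows. GGCGCC was present in 28.9% of these windows, against 11.9% of all 32851 windows in the table. The windows of the members were also richer in G and C, with a median of 64.7% against 52.7% for all windows. GTCTAGAC was in 1 of the 38 windows, that of Smad6, and in 0.213% of all. CAGACA was in 15.8% of the member windows and in 21.0% of all windows. The windows of Smad3 (chr9:63757945-63758244) and Acvr2b (chr9:119401928-119402227) held none of the 3. Smad7, Bambi and Bmp7, which also passed, have no window in the listing by gene. That listing left out the windows of a chromosome, which stayed in the counts above. The counts may thus include windows of unlisted members, and nothing is said of single motifs in the promoters of Smad7, Bambi and Bmp7. A match is a string of letters and was not tested as a binding site.

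Of the BMP ligands, Bmp5 rose and Bmp7 fell in KO. Bmp5 (probe set 10587231) lay at 8.95, 8.55 and 8.69 in KO, at 8.28, 8.33 and 8.27 in HET, against 8.28, 8.49 and 8.32 in WT. The lowest KO array sat just above the highest WT array. The difference was 0.37 ± 0.10 (SE, n = 3 each) against WT with an adjusted p of 0.0318, a 1.29-fold rise, and 0.44 against HET with an adjusted p of 0.0168. Bmp7 (probe set 10490129), a ligand close to Bmp5 in sequence, lay at 9.87, 10.01 and 9.74 in KO, at 10.38, 10.33 and 10.17 in HET, against 10.19, 10.31 and 10.09 in WT. All KO values were below all HET and WT values. It fell by 0.32 ± 0.09 against WT, to 80.0% of WT, with an adjusted p of 0.0323, and by 0.42 against HET with an adjusted p of 0.0123.

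Both ligand calls were lost when 1 of several arrays was left out. The adjusted p for Bmp5 between KO and WT was 0.0581 without KO 3, 0.0513 without HET 1, 0.108 without WT 1 and 0.0815 without WT 3. For Bmp7 it was 0.0504 without KO 1, 0.0900 without KO 3, 0.0501 without HET 2, 0.0866 without WT 1 and 0.108 without WT 2. In these fits 12.7% to 19.5% of all genes were called, and 29.1% without KO 1, against 23.5% with all arrays. Between KO and HET both were lost without HET 1, at 0.0577 for Bmp5 and 0.0527 for Bmp7. The direction of each difference was the same in these fits.

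Bmp4, a ligand of the extraembryonic mesoderm, lay at 10.64, 10.68 and 10.51 in KO, at 10.41, 10.76 and 10.41 in HET, against 10.33, 10.48 and 10.48 in WT. The KO arrays were above the WT arrays but not above HET, and the difference from WT of 0.18 had an adjusted p of 0.226. With array weights it was 0.29 with an adjusted p of 0.0325. Bmp6 differed by -0.07 with an adjusted p of 0.458. Bmp2 was at 7.93, 7.84 and 7.84 in KO, at 7.63, 7.87 and 7.63 in HET, against 7.84, 7.71 and 8.44 in WT, with WT 3 far above the rest. Bmp1, a secreted protease that cleaves procollagen and Chordin and is no BMP ligand, differed by 0.16 with an adjusted p of 0.226.

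Bmp8b, a ligand known for its role in germ cell formation, was uneven within KO. It lay at 6.48, 7.63 and 8.08 in KO, at 6.89, 7.04 and 6.89 in HET, against 6.61, 6.81 and 6.65 in WT. KO 1 was the lowest of all 9 arrays and KO 3 the highest, and the difference of 0.71 ± 0.32 had an adjusted p of 0.142. Its neighbour in sequence Bmp8a, whose signal may share probes with it, lay at 6.97, 7.42 and 7.62 in KO, with a difference of 0.24. Tgfb2 had the same order of arrays within KO, at 7.76, 8.40 and 8.52 in KO, at 8.03, 8.22 and 7.74 in HET, against 7.80, 7.96 and 8.00 in WT. The mean of 5 trophoblast markers ran in this order too, at 5.90, 6.19 and 7.19 in KO, at 5.67, 6.00 and 5.81 in HET, against 5.79, 6.13 and 5.90 in WT. The log2 of their summed level ran from 9.63 to 11.49 in KO, from 9.80 to 10.30 in HET and from 9.90 to 10.19 in WT. Psg17 and Ctsq were dim on all arrays. Tpbpa, dim on 8 arrays, lay at 5.90, 4.92 and 7.84 in KO, out of this order. The 2 markers tested, Ascl2 at 6.48, 7.84 and 8.91 and Plac1 at 9.25, 10.19 and 11.06 in KO, did not pass. The part of trophoblast cells in these values was not tested. Without KO 1, Bmp1, Bmp8a, Bmp8b, Tgfb2 and Smad6 also passed as higher between KO and WT, and Eng and Tgfbr1 as lower, while Bmp7 no longer passed, which gave 10 members higher and 3 lower. In that fit 29.1% of all genes were called, 1399 higher and 2427 lower, against 23.5% with all arrays.

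No TGF-beta or activin ligand passed. Tgfb1 lay at 10.41, 9.65 and 9.58 in KO, at 9.53, 9.57 and 9.57 in HET, against 9.57, 9.54 and 9.53 in WT. KO 1 stood far above the other 8 arrays, which lay within a narrow band, so the mean difference of 0.33 ± 0.18 came mostly from 1 array, and its adjusted p was 0.216. Without KO 1 the difference was 0.07 with an adjusted p of 0.349. Tgfb3 was at 7.16, 7.14 and 7.75 in KO, at 7.25, 7.13 and 7.11 in HET, against 7.00, 7.14 and 7.07 in WT. Here KO 3 was the array apart, and the adjusted p was 0.193. Inhbb, an activin and inhibin subunit, differed by 0.19 from WT with an adjusted p of 0.143.

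Acvr2b, a type II receptor for activins that also takes part in BMP signalling, was the only receptor kinase of the 9 tested that passed. It (probe set 10590169) lay at 8.61, 8.32 and 8.77 in KO, at 8.10, 7.92 and 7.97 in HET, against 8.07, 8.02 and 8.09 in WT. All KO arrays were above all others. The difference was 0.51 ± 0.11 against WT, or 1.42-fold, with an adjusted p of 0.0105, and 0.57 against HET with an adjusted p of 0.00675. Against WT the adjusted p was 0.0533 without WT 2 and KO 1 together. Acvr2a, which encodes the closely related receptor, was at 8.46, 8.40 and 8.49 in KO, at 8.58, 8.48 and 8.39 in HET, against 8.44, 8.85 and 8.46 in WT. Its ranges overlapped, with a difference from WT of -0.13 and an adjusted p of 0.399.

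The other type II receptors did not pass. Bmpr2, which binds BMPs, lay at 10.32, 10.32 and 10.41 in KO, at 10.21, 10.31 and 9.97 in HET, against 10.21, 10.25 and 10.28 in WT, with a difference from WT of 0.10 and an adjusted p of 0.394. Against HET its difference was 0.19, and after quantile normalization 0.25 with an adjusted p of 0.0471. Tgfbr2, the type II receptor for TGF-beta, lay at 9.08, 9.09 and 9.09 in KO, at 9.44, 9.26 and 9.22 in HET, against 9.23, 9.37 and 9.17 in WT. All KO values of Tgfbr2 lay below the others, but the difference from WT of -0.17 had an adjusted p of 0.138 and that from HET of -0.22 an adjusted p of 0.0676. Of the 5 type I receptors tested, 0 passed in limma, also at an unadjusted p under 0.05. Bmpr1a, a type I receptor for BMPs, was at 10.61, 10.45 and 10.60 in KO, at 10.45, 10.47 and 10.32 in HET, against 10.36, 10.52 and 10.41 in WT. The differences of the 5 from WT ran from -0.14 to 0.12, and the ranges of KO and WT overlapped for each, Tgfbr1, Acvr1, Acvr1b and Acvrl1 included. After quantile normalization Bmpr1a passed, with a difference of 0.21 and an adjusted p of 0.0370 against WT and 0.0371 against HET.

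Bambi encodes a receptor-like protein without a kinase domain that blocks signalling. It (probe set 10453604) lay at 8.93, 9.13 and 9.11 in KO, at 8.78, 8.78 and 8.83 in HET, against 8.72, 8.76 and 8.65 in WT. The KO arrays were above all others, and HET and WT did not overlap either. The difference was 0.35 ± 0.07 against WT, or 1.28-fold, with an adjusted p of 0.00739, and 0.26 against HET with an adjusted p of 0.0235. The call against HET was lost at an adjusted p of 0.0687 without KO 2, 0.0633 without KO 3, 0.0797 without HET 1 and 0.0749 without HET 2, and at 0.0646 with the Eif2s3y level as a covariate. The co-receptors were not called. Tgfbr3, also called betaglycan, lay at 10.54, 10.30 and 10.30 in KO, at 10.36, 10.39 and 10.19 in HET, against 10.42, 10.42 and 10.46 in WT. Its difference from WT was -0.05 with an adjusted p of 0.663, and that of Eng was -0.15 with an adjusted p of 0.204.

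Smad7, an inhibitory Smad that acts on type I receptors, had the lowest adjusted p of all members. It (probe set 10456745) lay at 8.67, 8.64 and 8.88 in KO, at 7.99, 8.00 and 7.96 in HET, against 7.89, 8.06 and 8.05 in WT. All KO arrays lay far above the other 6, which lay close together. The difference was 0.73 ± 0.08 against WT, or 1.66-fold, with an adjusted p of 0.00127, and 0.75 against HET with an adjusted p of 0.000929. Smad6, the inhibitory Smad that prefers the BMP branch, lay at 8.58, 8.74 and 8.71 in KO, at 8.43, 8.51 and 8.54 in HET, against 8.54, 8.54 and 8.51 in WT. Its KO arrays were also all above the others, but the difference from WT was 0.15 with an adjusted p of 0.101, and 0.0305 without KO 1. Against HET it was 0.19 with an adjusted p of 0.0569, and 0.0199 without KO 1.

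Smad3, which carries TGF-beta and activin signals, was the only receptor Smad of 5 that passed. It (probe set 10594404) lay at 9.40, 9.42 and 9.58 in KO, at 8.99, 9.03 and 9.01 in HET, against 8.95, 9.12 and 8.91 in WT. The KO arrays lay above all others with a clear gap. The difference was 0.47 ± 0.07 against WT, or 1.39-fold, with an adjusted p of 0.00332, and 0.45 against HET with an adjusted p of 0.00382. Smad2, its partner in the same branch, lay at 10.18, 10.06 and 9.95 in KO, at 10.13, 10.24 and 10.02 in HET, against 10.13, 10.15 and 10.13 in WT. The groups overlapped, with a difference from WT of -0.07 and an adjusted p of 0.509. The BMP receptor Smads Smad1, Smad5 and Smad9 differed from WT by 0.10, 0.15 and -0.003, with adjusted p of 0.484, 0.138 and 0.986. Smad4, the common partner, lay at 11.07, 10.91 and 10.92 in KO, at 10.88, 10.88 and 10.74 in HET, against 10.83, 10.88 and 10.85 in WT. Its KO arrays lay just above the others, and the difference from WT of 0.11 had an adjusted p of 0.246. It passed after quantile normalization, at 0.18 with an adjusted p of 0.0305, and after cyclic loess, at 0.17 with an adjusted p of 0.0405. Against HET the adjusted p was 0.195, and 0.0277 and 0.0433 after these scalings.

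The Id genes encode helix-loop-helix proteins that lack a DNA-binding region and hold back bHLH transcription factors, and they are widely used as readouts of BMP signalling. Of the 4, 1 passed. Id2 (probe set 10399691) lay at 11.92, 11.99 and 11.94 in KO, at 12.28, 12.24 and 12.17 in HET, against 12.28, 12.27 and 12.19 in WT. All KO arrays lay below all others. It fell by 0.30 ± 0.06 against WT, to 81.4% of WT, with an adjusted p of 0.00702, and by 0.28 against HET with an adjusted p of 0.00905. Id3 lay at 8.87, 8.99 and 8.93 in KO, at 8.69, 8.75 and 8.79 in HET, against 8.78, 8.82 and 8.61 in WT. Its KO arrays were above the others, but the difference from WT of 0.20 had an adjusted p of 0.0732. Id1 was at 9.73, 10.02 and 9.85 in KO, at 9.93, 9.83 and 9.85 in HET, against 9.87, 9.85 and 9.73 in WT, with a difference from WT of 0.05 and an adjusted p of 0.655. Id4 differed by 0.17 with an adjusted p of 0.322.

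**Figure D2:**
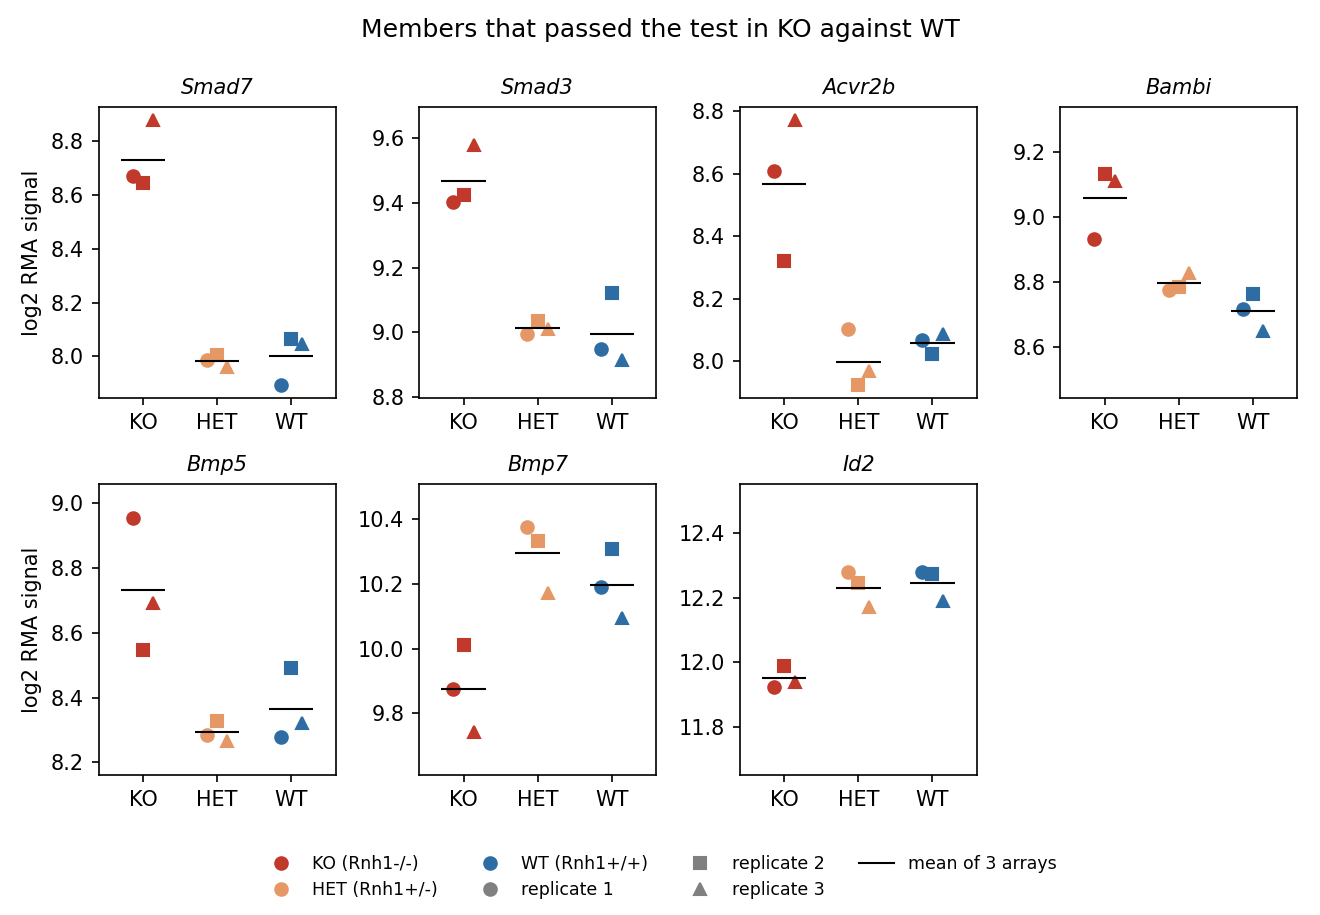
The log2 RMA signal of Smad7, Smad3, Acvr2b, Bambi, Bmp5, Bmp7 and Id2 on each of the 9 arrays, with KO, HET and WT from left to right, a marker shape for each replicate number and a line at the mean of 3 arrays. Panel scales differ; the 3 KO arrays lie above all HET and WT arrays for the first 5 genes and below them for Bmp7 and Id2.

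Some markers of several cell types also differed between KO and WT, beside the 23.5% of all genes that were called, 8.27% higher and 15.2% lower. In a whole tissue, fewer cells of a type and less RNA per cell cannot be told apart. Of 10 visceral endoderm markers 2 fell, Afp and Apoa4, and the log2 of their summed level was 15.60 to 15.75 in KO, 15.85 to 15.99 in HET and 15.88 to 15.97 in WT. Of 10 markers of extraembryonic mesoderm, Hand1, Twist1 and Foxf1 rose and Postn fell, with sums from 14.19 to 14.24 in KO, 14.03 to 14.11 in HET and 14.08 to 14.17 in WT. Of 9 erythroid markers 4 fell, with sums from 14.77 to 15.00 in KO, 14.98 to 15.09 in HET and 15.03 to 15.09 in WT, while 3 of 6 macrophage markers fell, with sums from 10.43 to 10.86 in KO, 11.03 to 11.32 in HET and 11.02 to 11.37 in WT. Of 10 endothelial markers 2 rose and 1 fell, with sums from 13.14 to 13.24 in KO, 13.01 to 13.18 in HET and 13.11 to 13.16 in WT. None of the markers of these lists was dim on all arrays, except Adgre1 and C1qb among those of macrophages. Of 6 markers of the maternal decidua, Prl3c1, Pgr and Sult1e1 were dim on all 9 arrays, while Prl8a2, named after its values were seen, was at 10.40, 9.76 and 11.34 in KO, at 6.50, 9.75 and 7.18 in HET, against 9.40, 8.90 and 10.72 in WT. Prl8a2 was high on all KO and WT arrays and passed between KO and HET, with a difference of 2.69 and an adjusted p of 0.0431, but not between KO and WT. The log2 of the summed level of the 6 ran from 10.89 to 11.87 in KO, from 10.20 to 11.02 in HET and from 10.64 to 11.64 in WT. Of 7 markers of the embryo proper, Pax3, Pax6 and Neurog2 were dim on all 9 arrays, but Sox2 reached 7.46 on KO 3 and Meox1 6.96 on KO 1 and 7.04 on KO 3, and both were dim on all HET and WT arrays. Their sum ran from 9.45 to 9.96 in KO, from 9.29 to 9.50 in HET and from 9.05 to 9.36 in WT, and 0 of the 2 tested passed in limma, also at an unadjusted p under 0.05. The part of these cell types in the differences of Smad7, Smad3, Acvr2b, Bambi, Bmp5, Bmp7 and Id2 was not tested.

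Secreted antagonists bind BMPs outside the cell, and neither of the 2 tested passed. Noggin (Nog) lay at 7.09, 7.24 and 7.22 in KO, at 6.84, 7.12 and 7.15 in HET, against 7.70, 6.78 and 7.93 in WT. WT 1 and WT 3 were the highest of all arrays and WT 2 the lowest, and the difference from WT of -0.28 had an adjusted p of 0.431. Without WT 2 it was -0.63 with an adjusted p of 0.0126. Chordin (Chrd) differed by 0.09 with an adjusted p of 0.438.

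The same 2 WT arrays were high for further antagonists, named here after their values were seen. Follistatin (Fst), which binds activins, lay at 7.30, 6.92 and 7.57 in KO, at 7.06, 7.21 and 7.38 in HET, against 10.09, 6.62 and 10.41 in WT. Bmper, a secreted BMP-binding protein, lay at 6.34, 6.87 and 6.78 in KO, at 6.42, 6.50 and 6.70 in HET, against 7.76, 6.58 and 8.54 in WT. Neither passed between KO and WT, with adjusted p of 0.145 for Fst and 0.111 for Bmper. The mean of 6 parietal endoderm markers was 9.61, 9.56 and 9.85 in KO, 9.61, 9.59 and 9.58 in HET and 10.32, 9.59 and 10.80 in WT. Parietal endoderm lines the outer wall of the early yolk sac and secretes laminin. The log2 of the summed level of these markers ran from 13.21 to 13.23 in KO, from 13.21 to 13.27 in HET and from 13.25 to 14.02 in WT, and none was dim on all arrays. Of the 6, Thbd passed as lower in KO than in WT, and Lama1 lay at 9.22, 9.57 and 9.66 in KO, at 9.60, 9.58 and 9.41 in HET, against 11.00, 9.57 and 11.59 in WT. The part of these cells in the levels of Nog, Fst and Bmper was not tested.

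**Figure D3:**
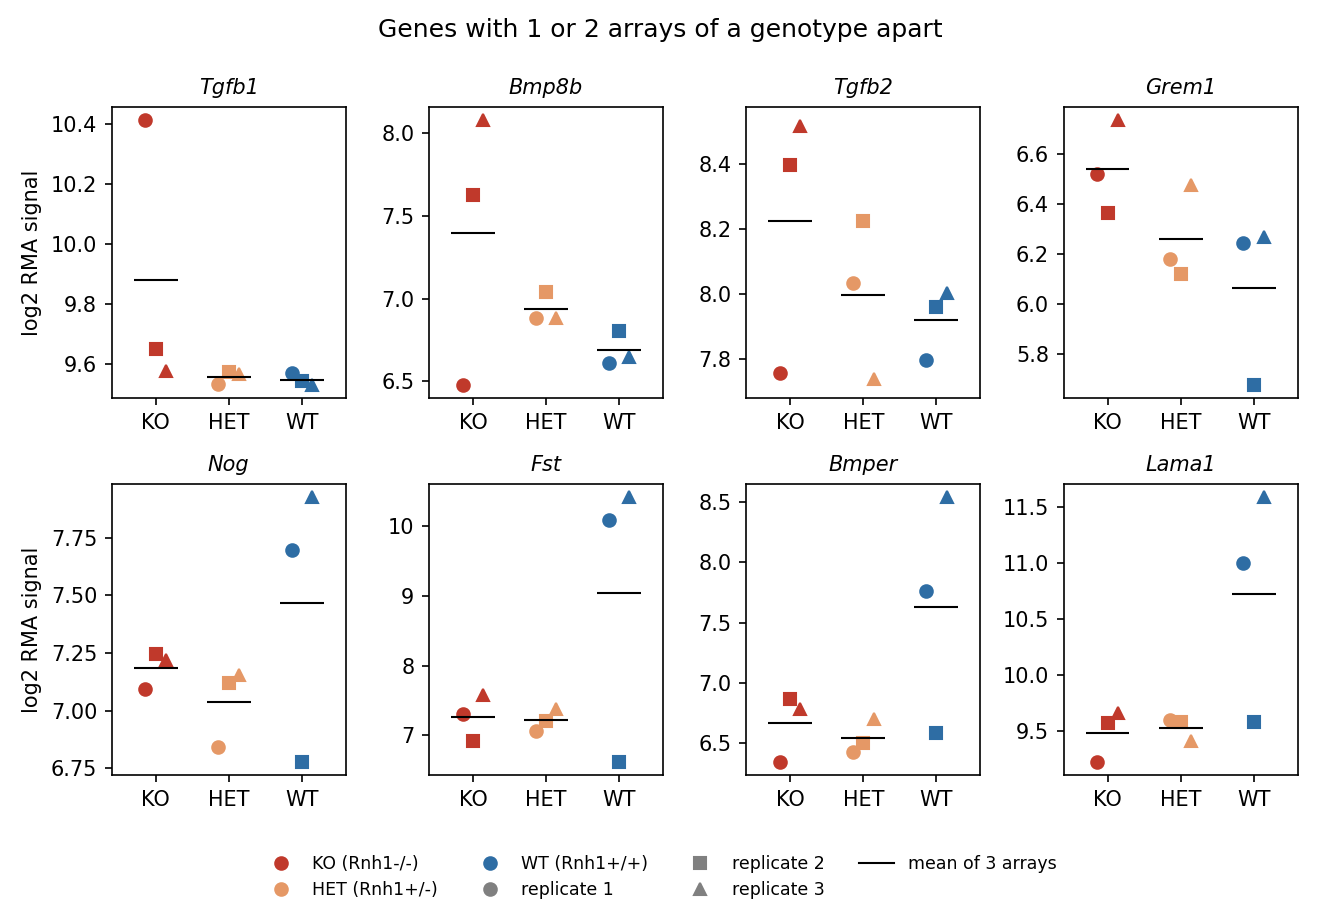
The log2 RMA signal on each of the 9 arrays for Tgfb1, Bmp8b, Tgfb2, Grem1, Nog, Fst, Bmper and the laminin gene Lama1, with KO, HET and WT from left to right and a line at the mean of 3 arrays. Panel scales differ; KO 1 stands alone for Tgfb1, KO 1 is the lowest array for Bmp8b, and WT 1 and WT 3 stand above WT 2 for Nog, Fst, Bmper and Lama1.

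Other genes of the pathway were taken from 5 lists of further ligands, secreted modulators and co-receptors, intracellular modulators, BMP targets and TGF-beta targets. Between KO and WT 13 of their 63 tested genes rose and 1 fell, together 22.2%, against 23.5% of all genes tested. The BMP targets, a list without the Id genes given above, held the most calls for their number. Of 11, 6 rose, or 54.5%, against 8.27% of all genes, and 0 fell. The median difference was 0.32, against -0.005 over all genes tested. Differences were above 0 for 9 and below 0 for 2. Tbx2 had all KO values below all WT values, with a difference of -0.24 and an adjusted p of 0.123. Of 11 TGF-beta targets, limma called 0, with 1 at an unadjusted p under 0.05 and a median of -0.05. Between KO and HET, where 21.8% of all genes passed, 4 BMP targets rose and 1 fell, and 1 TGF-beta target rose. Between HET and WT limma called 0 of the 63, with 2 at an unadjusted p under 0.05.

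Of the BMP targets, the homeobox gene Msx2 lay at 8.19, 8.06 and 8.04 in KO, at 7.60, 7.93 and 7.74 in HET, against 7.53, 7.39 and 7.69 in WT. All KO values were above the others, and the difference from WT was 0.56 ± 0.10 with an adjusted p of 0.00627. Gata2, a transcription factor of blood progenitors and trophoblast, lay at 9.01, 9.66 and 10.36 in KO, at 8.40, 8.78 and 8.58 in HET, against 8.51, 8.78 and 8.51 in WT. KO arrays were spread over a wide range above the others, in the same order as the trophoblast marker means above, and the difference from WT was 1.08 ± 0.28 with an adjusted p of 0.0234. Msx1 rose by 0.32, the T-box gene Tbx20 by 0.37, the bHLH gene Atoh8 by 0.36 and Zfp423, a zinc finger partner of BMP Smads, by 0.28. Their adjusted p were 0.0290 for Msx1, 0.0152 for Tbx20, 0.0363 for Atoh8 and 0.0185 for Zfp423. Against HET, Atoh8 and Zfp423 did not pass, with adjusted p of 0.0787 and 0.0724.

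The count of BMP targets changed when single arrays were left out. It was 1 without WT 1, 3 without WT 2 and 5 without WT 3. It was 2 without KO 2, 4 without KO 3 and 5 without HET 2, and 2 with arrays centred on their medians. These alternatives were chosen after seeing the data. The share of all genes called, 23.5% in the main fit, was 12.7%, 13.4% and 18.3% without WT 1, WT 2 and WT 3. It was 17.3% without KO 2, 19.0% without KO 3 and 19.5% without HET 2. With arrays centred it was 23.5%, and 577 genes rose against 1092. Without WT 1 the adjusted p was 0.0742 for Gata2, 0.0983 for Msx1, 0.109 for Atoh8, 0.0631 for Tbx20 and 0.0609 for Zfp423. For Gata2 it was also 0.0610 without KO 2 and 0.0609 without WT 3. Atoh8 was lost under 12 of the 22 alternatives, with an adjusted p of 0.0534 with no filter, 0.0505 after quantile normalization, 0.0531 after cyclic loess, 0.0524 with the Eif2s3y level as a covariate and 0.0643 to 0.0830 without 1 KO array. Msx1 was lost under 6, Zfp423 under 5, Gata2 under 4, Tbx20 under 3 and Msx2 under 0. Between KO and HET the count of 4 higher was 0 without HET 1, 1 without KO 2, 2 without KO 3, HET 2 or WT 1 and 3 without any 1 of the others. Of all genes, 11.5% were called without HET 1, 11.9% without HET 2 and 16.5% without WT 1. Without any other array 17.0% to 23.9% were called, against 21.8% with all arrays. The count of 1 lower was 0 without KO 1, KO 2, HET 1, HET 2, WT 1 or WT 3, and that of 1 TGF-beta target was 0 without HET 1. Ccn2, a matricellular TGF-beta target, lay at 10.45, 10.64 and 10.22 in KO, at 9.38, 9.65 and 9.50 in HET, against 9.74, 9.40 and 10.28 in WT. WT 3 overlapped KO, and the difference was 0.63 from WT with an adjusted p of 0.0502 and 0.93 from HET with an adjusted p of 0.0125.

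Of 15 intracellular modulators 4 rose and 0 fell, or 26.7% called, near the 23.5% of all genes. Tgif2, a homeodomain corepressor of Smad-dependent transcription, lay at 8.62, 8.44 and 8.64 in KO, at 8.23, 8.08 and 8.26 in HET, against 8.05, 8.05 and 8.21 in WT. All KO arrays were above the others, and the difference from WT was 0.46 ± 0.08 with an adjusted p of 0.00532. The related Tgif1 rose by 0.31, the Smad corepressor Ski by 0.29 and Tab2, an adaptor of the kinase Tak1, by 0.23. The count of 4 was 3 without KO 3 or WT 2, 2 without WT 1, 1 without WT 3 and 1 with arrays centred on their medians. The share of all genes called in each of these fits is given above for the BMP targets. Tab2 was lost under 5 of the 22 alternatives, Tgif1 under 4, Ski under 3 and Tgif2 under 0.

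Of 20 secreted modulators and co-receptors 2 rose and 1 fell, or 15.0% called, against 23.5% of all genes. Lrrc32, which holds latent TGF-beta at the cell surface, lay at 8.37, 8.01 and 8.06 in KO, at 8.81, 8.70 and 8.79 in HET, against 8.66, 8.85 and 8.62 in WT. All KO arrays were below the others, and it fell by 0.56 ± 0.10 against WT with an adjusted p of 0.00597. The BMP co-receptors Rgma and Rgmb rose by 0.40 and 0.29, with adjusted p of 0.0183 and 0.0149. Against HET, Rgma did not pass, with an adjusted p of 0.0795, while Rgmb did, at 0.0368. Between KO and WT the adjusted p for Rgma was 0.0693 without WT 1, 0.0653 without WT 2 and 0.0678 without WT 2 and KO 1 together. For Rgmb it was 0.0509 with arrays centred on their medians. Of 6 further ligands, Inha, the alpha subunit of inhibins, rose by 0.34 with an adjusted p of 0.0107. That call was lost after quantile normalization (adjusted p 0.0691), after cyclic loess (0.0674) and without WT 2 and KO 1 together (0.0510).

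**Figure D4:**
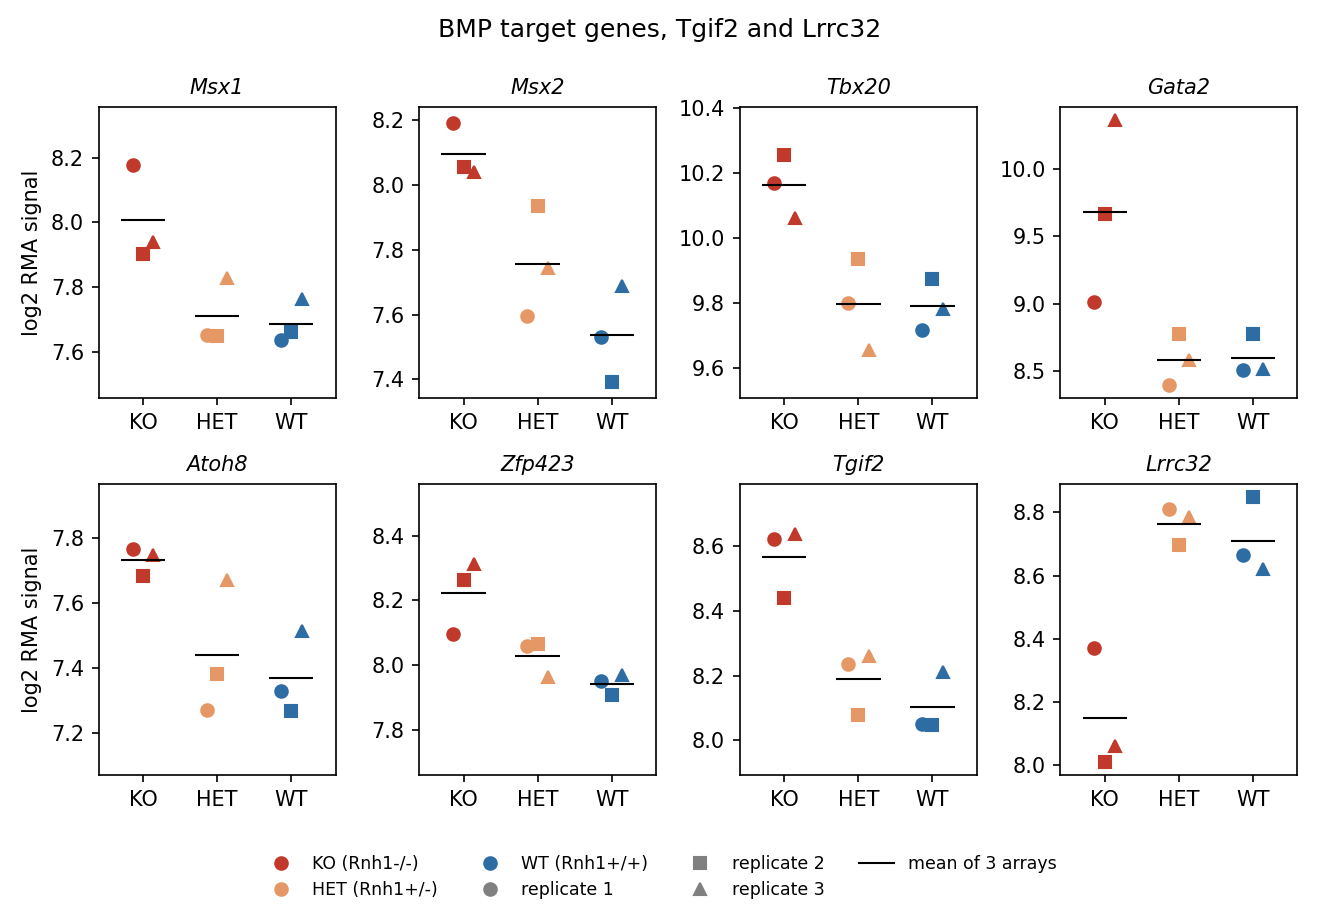
The log2 RMA signal of 6 BMP target genes, Tgif2 and Lrrc32 on each of the 9 arrays, with KO, HET and WT from left to right and a line at the mean of 3 arrays. Panel scales differ; all 3 KO arrays lie above all WT arrays for Msx1, Msx2, Tbx20, Gata2, Atoh8, Zfp423 and Tgif2, and below all WT arrays for Lrrc32.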

How the data were processed

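The authors deposited log2 values per probe set for 9 arrays, and the submitters' processing notes name RMA and Affymetrix Expression Console 1.2.1.20. Amplification started from 100 ng of total RNA and labelling from 5.5 µg of cDNA, per the labels' protocols. The build behind the annotation of the array was not given in the sources used, and the number of arrays limits the precision. RMA scales the arrays to one another, so differences are relative to the other genes on the array. The deposited medians were still not equal, and were highest on KO 3, at 7.20, and lowest on WT 2, at 7.07. Of 28350 probe sets, 21780 had 1 symbol in the platform annotation, 1618 several and 4952 none, and only the first were used. A gene was represented by its probe set with the highest mean, and each of the 45 members had 1 probe set. The signal of a probe set depends on its probes, so it was used to choose probe sets and the members to name, and not to order genes by level.

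Genes above the 40th percentile of their array on at least 3 arrays entered 1 limma model (limma 3.58.1, R 4.3.3) of the 3 genotypes with empirical Bayes moderation. Benjamini-Hochberg adjustment was applied within a comparison, and log2 differences have the standard error of that fit. The fit was tested on simulated data. The members, gene lists, tests and alternatives were chosen with earlier results of these data known. Per-array values are given for members that passed in any comparison, for the member whose probe set had the highest mean in each role and for further members named after their values were seen. From the pathway lists each gene that passed between KO and WT is named, at most 6 per list.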

Additional observations from a re-analysis of the deposited data

How the results depend on the processing

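Smad7, Smad3 and Id2 passed between KO and WT and between KO and HET under all 22 alternatives, which varied the filter, probe set choice, scaling, prior, weights, covariates, threshold and arrays. Bambi did so between KO and WT and Acvr2b between KO and HET. Bmp5 was lost between KO and WT with arrays centred (adjusted p 0.0919) and with only the 2 genotypes compared (0.0775), Bmp7 with only the 2 genotypes (0.0586) and without WT 2 and KO 1 (0.119), and Bambi between KO and HET with only the 2 genotypes (0.0575); the cause was not tested.

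Between KO and WT, the members higher numbered 9 after quantile normalization, 8 after cyclic loess and 14 with array weights, which also gave 4 lower; with only the 2 genotypes 1 was lower. Over all genes, 1092 were higher and 2009 lower, against 577 and 2529 with arrays centred, 2354 and 3399 with array weights, 1653 higher at an adjusted p under 0.1 and 675 higher with only the 2 genotypes. After quantile normalization 1471 genes were higher and 1939 lower, and after cyclic loess 1345 and 1886. Leaving out each array gave 4 to 10 members higher and 1 to 3 lower, and 515 to 1399 genes higher and 1139 to 2427 lower.

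Between KO and HET, the members higher numbered 8 after quantile normalization, 8 with array weights (4 lower), and 10 without WT 2 and KO 1 (4 lower). Over all genes, 1079 were higher and 1796 lower, against 698 higher with arrays centred, 710 and 1029 with Eif2s3y as a covariate, 1625 higher at an adjusted p under 0.1 and 627 higher with only the 2 genotypes. Quantile normalization gave 1475 and 1916, array weights 1345 and 2620, and leaving out WT 2 and KO 1 gave 1210 and 2199. Leaving out each array gave 3 to 10 members higher and 1 to 3 lower, and 541 to 1103 genes higher and 940 to 2036 lower. Between HET and WT, 6 genes were lower with array weights, 4 without WT 2 and KO 1, and 0 to 5 when each array was left out.

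Signs were followed only for members that passed in any comparison or had the highest mean in their role. Those of them that did not pass changed sign as follows, and the remaining members were not followed. Between KO and WT, Smad2 was at 0.0013 after quantile normalization, and Tgfbr3 at 0.028 after quantile normalization and 0.0073 after cyclic loess. Between KO and HET, Tgfbr3 was at -0.017 with array weights and -0.014 without KO 1, alone or with WT 2 (leaving out each array gave -0.014 to 0.109), and Nog at -0.043 with Eif2s3y as a covariate.

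Same-numbered arrays had deviations correlating from -0.257 to 0.425, and arrays of different number from -0.590 to 0.413. With 3 arrays per genotype, these values cannot tell whether the numbers pair the samples. With the replicate number as a block, 5 members were higher and 2 lower in both KO comparisons, with 1105 genes higher and 2026 lower between KO and WT and 1055 and 1798 between KO and HET.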
